A study of Mus musculus with 6 samples.

Results

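The 29 genes described here encode enzymes of cholesterol synthesis and the SREBP2 pathway that controls them, measured by RNA sequencing of mouse liver. They were taken as a list of gene symbols, by a rule that uses no measured values. All 29 were found among the 35540 genes of the deposited table, and all 29 were among the 14189 genes tested, whose mean abundance reached 0.1 TPM, a unit of transcript abundance that is corrected for transcript length and adds up to the same total in each mouse. The livers were those of 3 mice with a Cre transgene (Surf4 fl/fl Alb-Cre+) and of 3 littermates without it (Surf4 fl/fl Alb-Cre-), called controls. Both genotypes carry 2 floxed Surf4 alleles, in which exon 2 is flanked by loxP sites. Cre is driven by the albumin promoter, so that exon 2 is excised in hepatocytes and the other cells of the liver keep it. Each genotype has male mice as replicates 1 and 3 and a female mouse as replicate 2. The mice were on a C57BL/6J background and were fasted overnight before collection. Their age at collection is not given in the sources used here. Mice are named below by their Cre status and replicate number (Alb-Cre+ 1).

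Surf4 itself, a cargo receptor that carries secreted proteins out of the endoplasmic reticulum, measured 59.0, 71.8 and 54.3 TPM in Alb-Cre+ 1, 2 and 3 and 92.5, 94.5 and 92.5 TPM in Alb-Cre- 1, 2 and 3. All Alb-Cre+ mice were below all controls. A transcript that lacks exon 2 still counts towards these values.

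Cholesterol is built from acetyl-CoA through HMG-CoA, mevalonate, isoprenoid diphosphates, squalene and lanosterol. The transcription factor SREBP2, product of Srebf2, is held in the endoplasmic reticulum by SCAP and an INSIG protein when the membrane is rich in sterol. When sterol falls, SCAP escorts SREBP2 to the Golgi, where the site-1 and site-2 proteases release the part that enters the nucleus and switches on most genes of the pathway. The liver is a main site of this synthesis, and fasting is known to lower it.

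SREBP2 binds sterol regulatory elements in promoters, usually beside sites for the factors NF-Y (CCAAT) and Sp1 (GGGCGG). The promoters of Hmgcs1, Mvk and Mvd, encoding 3 early enzymes, are shown because these genes varied at least 5-fold between the mice and the 200 bases before their RefSeq start overlap no exon of GENCODE M21. The sequences are those of RefSeq on GRCm38.p6, 5′ to 3′ on the gene's strand. Capitals mark TCACNCCAC, CCAAT and GGGCGG on either strand.
Hmgcs1, chr13:119690151-119690350, plus strand: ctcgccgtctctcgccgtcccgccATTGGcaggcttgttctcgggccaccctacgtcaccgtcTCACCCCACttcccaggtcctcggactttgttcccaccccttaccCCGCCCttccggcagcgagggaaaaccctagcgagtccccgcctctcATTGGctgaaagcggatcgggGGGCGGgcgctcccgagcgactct
Mvk, chr5:114444069-114444268, plus strand: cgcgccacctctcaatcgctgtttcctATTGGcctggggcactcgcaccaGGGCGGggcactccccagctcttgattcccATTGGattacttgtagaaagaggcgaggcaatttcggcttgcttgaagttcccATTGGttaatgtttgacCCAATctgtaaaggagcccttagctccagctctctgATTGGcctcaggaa
Mvd, chr8:122443423-122443622, minus strand: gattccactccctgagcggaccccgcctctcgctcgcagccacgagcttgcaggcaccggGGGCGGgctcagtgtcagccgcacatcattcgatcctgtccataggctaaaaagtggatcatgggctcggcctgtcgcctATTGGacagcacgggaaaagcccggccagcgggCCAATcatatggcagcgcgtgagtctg

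Promoter windows from 250 bases before to 50 bases after the start were found for 25 of the 29 genes. CCAAT stood in 20 of the 25, against 41.1% of all genes with such a window. GGGCGG stood in 21 of the 25, against 38.2% of all genes. The sterol regulatory element written as TCACNCCAC was found in 1 of the 25 (Hmgcs1, from 137 to 129 bases before the start), against 1.44% of all genes. Its classic form, with A before these letters and C at the open position, was found in 0 of the 25, against 0.0999% of all genes. These are matches of letters within a short window, counted on both strands, and the motifs do not overlap where they are marked above.

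The comparison of genotypes asks whether loss of hepatocyte Surf4 goes with a change in this program. No member passed an adjusted p of 0.01 (limma on log2(TPM + 0.1), Benjamini-Hochberg over all genes), and neither did any other gene (0% of 14189). Surf4, the targeted gene, did not pass either (log2 fold change -0.60, unadjusted p = 0.0027 and adjusted p = 0.9999 in limma). The paper, using DESeq2, reported transcripts changed at a false discovery rate under 0.01 between these genotypes. A lack of calls in the limma fit therefore does not show that a gene was unchanged. At an unadjusted p under 0.05, 1 of 29 members was called, against 1.76% of all genes, and with the replicate number as a block these counts were 2 of 29 (Tm7sf2 and Aacs) and 4.69%. The same single gene was the only member whose values did not overlap between genotypes, against 4.9% of all genes. Of the members, 20 of 29 had a higher mean log2 value in Alb-Cre+ mice, against 49.6% of all genes. Their median log2 fold change was 0.31, beside -0.0017 for all genes tested. Every member had an adjusted p of 0.9999 in limma, and the 95% intervals of the log2 fold changes reached from 0.350 on either side of the estimate for Scap to 3.65 for Sqle. With 3 mice against 3, an exact permutation test of a single gene cannot go below 0.1.

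That member was Tm7sf2, which encodes a sterol reductase of the step after lanosterol demethylation. Tm7sf2 measured 74.8, 42.7 and 61.8 TPM in the Alb-Cre+ mice and 107, 79.5 and 85.8 TPM in the controls. Every Alb-Cre+ mouse was below every control and below its own replicate partner. The mean was 59.7 ± 16.2 TPM (SD, n = 3) against 90.8 ± 14.5 TPM, and the log2 fold change was -0.63 (SE 0.23, 95% interval -1.16 to -0.096, unadjusted p = 0.0268 and adjusted p = 0.9999 in limma). When the replicate number was fitted as a block, the log2 fold change of Tm7sf2 had an SE of 0.12, an unadjusted p of 0.00266 and an adjusted p of 0.494 in limma. After rescaling of the mice by the median of ratios the values of Tm7sf2 met, with 75.7 in Alb-Cre+ 1 and 75.2 in Alb-Cre- 2. Tm7sf2 was highest in Alb-Cre- 1, as was 1 other member (Ebp). Lbr, the nuclear envelope protein with the same reductase activity, measured 2.87, 4.92 and 2.09 TPM in the Alb-Cre+ mice and 2.10, 4.60 and 2.29 TPM in the controls. Its values overlapped between genotypes and were highest in the females.

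**Figure D1:**
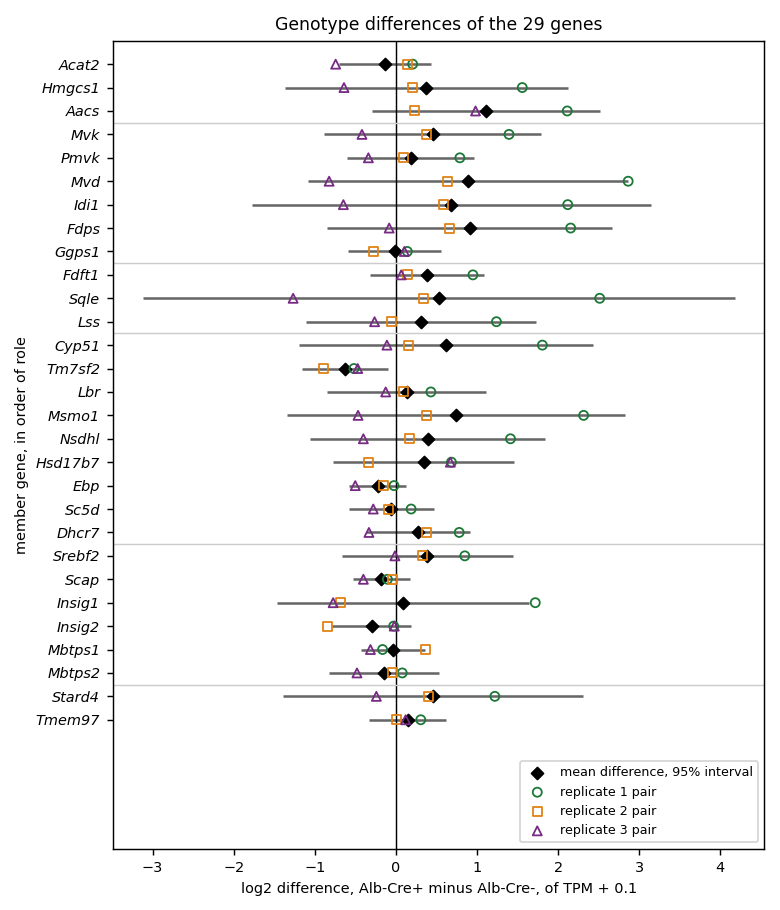
Log2 difference between Alb-Cre+ and Alb-Cre- livers for each of the 29 genes (horizontal axis, log2 of TPM + 0.1), with the mean and its 95% interval as diamonds and bars and the 3 same-numbered pairs as open symbols. The interval excludes 0 only for Tm7sf2, and for most synthesis enzymes the pair of replicate 1 lies far to the right and the pair of replicate 3 to the left of 0.

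Most members varied widely between mice of the same genotype. Their SD within genotypes had a median of 0.698 on the log2 scale, beside 0.327 for all genes tested. The highest mouse was at least 5-fold over the lowest for 12 of 29 members, against 9.97% of all genes. Alb-Cre+ 1 was the highest and Alb-Cre+ 3 the lowest of the 6 mice for 14 of 29 members, against 2.76% of all genes. After rescaling by the median of ratios this count was 13, against 1.66% of all genes. The median deviation of the members from their 6-mouse mean was 0.64, 0.36 and -0.54 in Alb-Cre+ 1, 2 and 3 and -0.17, 0.38 and -0.46 in Alb-Cre- 1, 2 and 3, on the log2 scale. For all genes tested these medians lay between -0.22 in Alb-Cre+ 3 and 0.25 in Alb-Cre+ 2. After rescaling by the median of ratios the median deviation of the members was 0.66, 0.15 and -0.34 in the Alb-Cre+ mice and -0.17, 0.30 and -0.40 in the controls. The 21 enzymes together measured 938, 658 and 346 TPM in the Alb-Cre+ mice and 541, 646 and 440 TPM in the controls, so that the highest and the lowest livers were both Alb-Cre+.

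**Figure D2:**
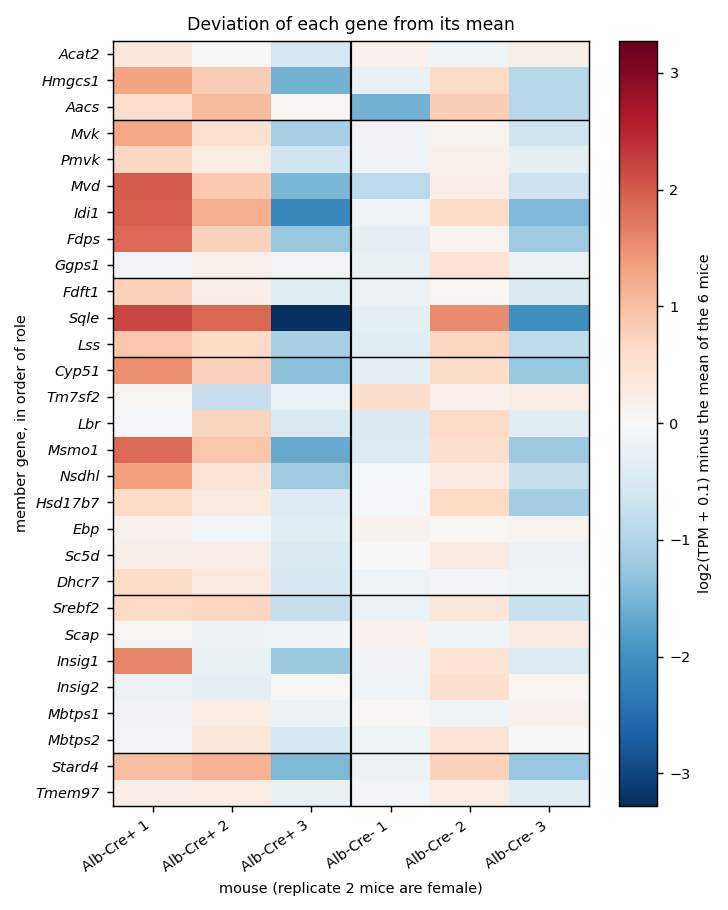
Deviation of each gene from its mean over the 6 mice, in log2(TPM + 0.1), with genes in rows in order of their role and mice in columns. Red cells gather in Alb-Cre+ 1 and 2 and Alb-Cre- 2, and blue cells in the replicate 3 mice of both genotypes, while Scap, Ebp and Mbtps1 stay close to white.

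The first steps make HMG-CoA. Hmgcs1, the cytosolic HMG-CoA synthase whose promoter is printed above, measured 91.4, 64.3 and 12.7 TPM in the Alb-Cre+ mice and 31.0, 55.8 and 19.9 TPM in the controls. The Alb-Cre+ livers thus spanned the controls on both sides. Aacs, which makes acetoacetyl-CoA from acetoacetate, measured 5.55, 7.76 and 3.94 TPM in the Alb-Cre+ mice and 1.21, 6.62 and 1.95 TPM in the controls. Aacs was higher in the Alb-Cre+ mouse of all 3 pairs, with a log2 fold change of 1.11 (SE 0.60, 95% interval -0.30 to 2.51), the largest among the members. It was 0.60 without Alb-Cre- 1, where Fdps was larger at 0.99, and 1.79 without Alb-Cre- 2. In limma its unadjusted p was 0.105, and 0.0265 with the replicate block (adjusted p = 0.960). Acat2, the cytosolic acetyl-CoA acetyltransferase, lay between 11.2 and 20.8 TPM. Acat2 shared 44% of its 30-base stretches with Acat3, so that reads of these paralogs may have been split between them.

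Most of the steps from mevalonate to isoprenoid diphosphates showed wide spreads. Idi1, the isomerase of isopentenyl diphosphate, measured 52.4, 30.8 and 3.07 TPM in the Alb-Cre+ mice and 12.0, 20.6 and 4.87 TPM in the controls. Fdps, farnesyl diphosphate synthase, measured 115, 54.5 and 13.4 TPM in the Alb-Cre+ mice and 25.8, 34.4 and 14.2 TPM in the controls. Mvd, the mevalonate diphosphate decarboxylase, measured 8.87, 3.97 and 0.702 TPM in the Alb-Cre+ mice and 1.13, 2.51 and 1.32 TPM in the controls. In each of these 3 genes Alb-Cre+ 1 was highest, Alb-Cre+ 2 second and Alb-Cre+ 3 lowest. Mevalonate kinase (Mvk) measured 18.1, 10.5 and 3.47 TPM in the Alb-Cre+ mice and 6.81, 8.05 and 4.67 TPM in the controls, in the same order. After rescaling by the median of ratios Fdps was instead lowest in Alb-Cre- 3 (14.8, against 15.4 in Alb-Cre+ 3). Pmvk, phosphomevalonate kinase, lay between 10.4 and 26.1 TPM. Ggps1, which leads away from sterols to geranylgeranyl diphosphate, varied only 1.61-fold, from 3.81 to 6.13 TPM.

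Sqle, squalene epoxidase and a rate-limiting enzyme of the later pathway, had the widest spread of the members. It measured 23.4, 19.0 and 0.435 TPM in the Alb-Cre+ mice and 4.02, 15.1 and 1.19 TPM in the controls. The highest liver was 53.8-fold over the lowest, and both carried the same genotype. Within pairs, the log2 difference of Sqle was 2.51, 0.34 and -1.27. Lss, lanosterol synthase, measured 8.33, 6.97 and 2.03 TPM in the Alb-Cre+ mice and 3.47, 7.23 and 2.46 TPM in the controls.

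Fdft1, squalene synthase, appeared flatter than its neighbours, at 58.3, 39.6 and 26.0 TPM in the Alb-Cre+ mice and 30.2, 35.9 and 24.9 TPM in the controls. Its transcripts did not vary alike. The transcript with all 8 exons annotated as protein coding in GENCODE M21 (ENSMUST00000054963.10, chromosome 14 of GRCm38, first exon from 63177683 to 63177793) measured 32.8, 13.6 and 0.163 TPM in the Alb-Cre+ mice and 4.55, 9.59 and 1.58 TPM in the controls. Its highest value was 201-fold over its lowest, with the mice in the same order as for Idi1. The 2 Fdft1 transcripts annotated as protein coding together ran from 0.354 to 37.8 TPM, a 107-fold spread. A retained-intron transcript of 3 exons (ENSMUST00000224267.3) lay between 7.69 and 15.3 TPM. A transcript absent from M21 (ENSMUST00000238526.2) measured 4.37, 10.8 and 14.7 TPM in the Alb-Cre+ mice and 13.0 to 14.5 TPM in the controls, and was lowest where the coding one was highest. These transcripts were singled out after their values were seen. The coding transcript shared 26.2% of its 30-base stretches with transcripts of Ctsb, a neighbouring gene, and 48% with those of any other gene, so that the division of reads among them is uncertain. Over all members, transcripts annotated as protein coding gave at least 88.4% of the TPM in every mouse for all but 5 genes (Aacs, Ggps1, Fdft1, Lss and Srebf2).

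**Figure D3:**
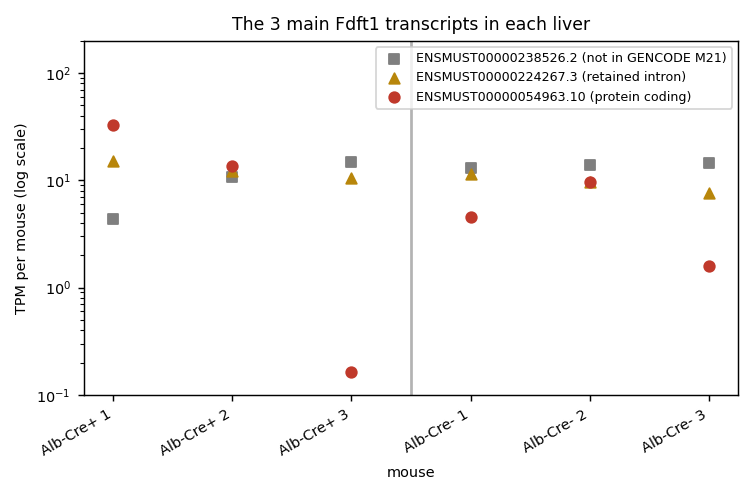
TPM of the 3 most abundant Fdft1 transcripts in each liver (logarithmic vertical axis), with Alb-Cre+ mice to the left of the line. The protein coding transcript runs from 0.163 to 32.8 TPM, while the other transcripts stay between 4.37 and 15.3 TPM.

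From lanosterol onward, the earlier enzymes varied most. Msmo1, the sterol methyl oxidase, measured 102, 52.7 and 8.76 TPM in the Alb-Cre+ mice and 20.4, 40.5 and 12.2 TPM in the controls. Cyp51, lanosterol demethylase, measured 31.2, 18.5 and 4.21 TPM in the Alb-Cre+ mice and 8.85, 16.6 and 4.56 TPM in the controls. Nsdhl, the sterol dehydrogenase that acts with MSMO1, measured 17.4, 9.14 and 2.97 TPM in the Alb-Cre+ mice and 6.46, 8.16 and 3.96 TPM in the controls. Each of them ranked Alb-Cre+ 1 first and Alb-Cre+ 3 last. After rescaling by the median of ratios Cyp51 was instead lowest in Alb-Cre- 3 (4.75, against 4.84 in Alb-Cre+ 3). Hsd17b7, the ketoreductase of the same demethylation complex, measured 31.6, 25.4 and 14.8 TPM in the Alb-Cre+ mice and 19.6, 32.1 and 9.28 TPM in the controls, with a control as both the highest and the lowest. The last enzymes were steadier. Ebp, the sterol isomerase, lay between 81.2 and 118 TPM, Sc5d, the desaturase, between 66.3 and 113 TPM, and Dhcr7, a reductase of the final steps, between 11.9 and 25.3 TPM. Alb-Cre+ 3 was the lowest liver for all 3, as it was for 42.9% of all genes. After rescaling by the median of ratios Ebp was instead lowest in Alb-Cre+ 2 (85.4, against 93.4 in Alb-Cre+ 3).

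**Figure D4:**
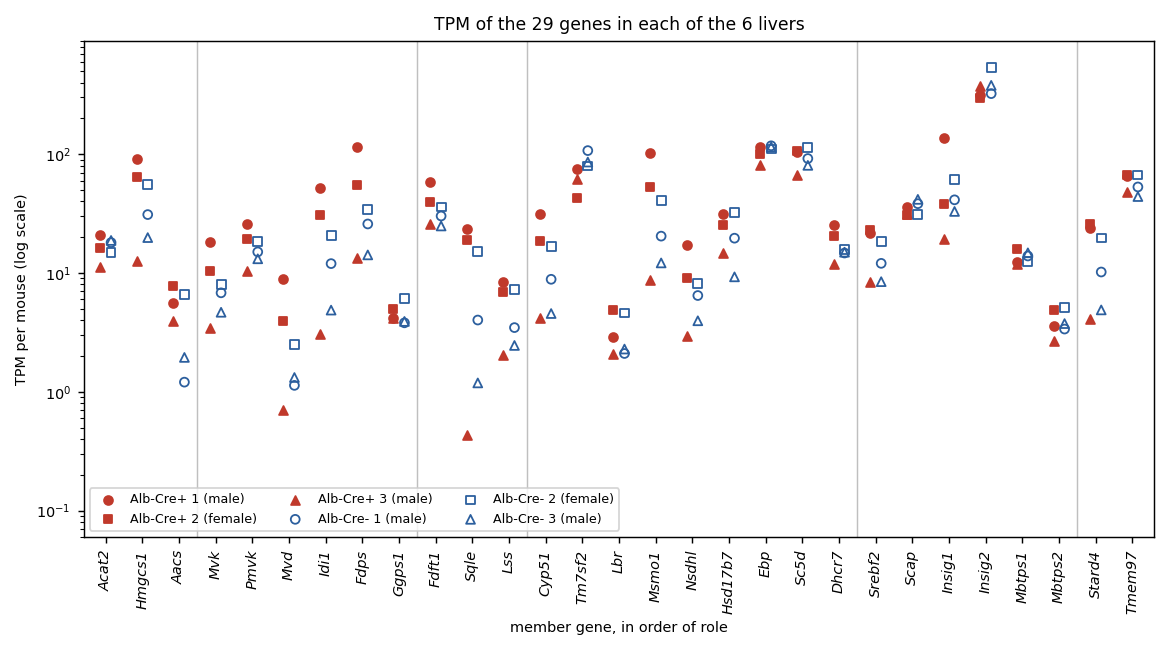
TPM of the 29 genes in each of the 6 livers (logarithmic vertical axis), with filled symbols for Alb-Cre+ and open symbols for Alb-Cre- mice, squares for the females, and lines between the role groups. The filled circles of Alb-Cre+ 1 and the filled triangles of Alb-Cre+ 3 enclose the controls for most synthesis enzymes, and only Tm7sf2 has all filled symbols below the open ones.

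Among the regulators, Srebf2 and Insig1 shared the order of the mice with the enzymes in part. Srebf2 measured 21.8, 23.1 and 8.38 TPM in the Alb-Cre+ mice and 12.1, 18.4 and 8.45 TPM in the controls. Both replicate 3 mice were below the other livers. Protein coding transcripts gave 52.4 to 61.7% of the Srebf2 TPM, and nearly all the rest came from a retained-intron transcript (3.20 to 9.48 TPM, ENSMUST00000230105.2). Its log2 fold change was 0.39 (SE 0.45, 95% interval -0.66 to 1.44).

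Insig1, an INSIG gene that is itself a target of SREBP2, measured 136, 38.1 and 19.2 TPM in the Alb-Cre+ mice and 41.3, 61.0 and 33.0 TPM in the controls. Alb-Cre+ 1 stood above and Alb-Cre+ 3 below the other livers. Insig2, which does not depend on SREBP2 and is known to be induced by fasting in liver, measured 317, 299 and 374 TPM in the Alb-Cre+ mice and 323, 537 and 379 TPM in the controls. It was the most abundant member in each of the 6 livers, and its highest value was in Alb-Cre- 2. Insig2 has a pair of main transcripts with separate first exons on chromosome 1 of GRCm38, from 121327691 to 121328024 (ENSMUST00000003818.14, 144 to 272 TPM) and from 121332492 to 121332589 (ENSMUST00000071064.13, 127 to 228 TPM). Both were highest in Alb-Cre- 2 and lowest in Alb-Cre+ 2.

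Scap, the escort protein, lay between 30.5 and 41.6 TPM and Mbtps1, the site-1 protease, between 11.9 and 16.0 TPM. They were, with spreads of 1.37-fold and 1.35-fold, the flattest members. Mbtps2, the site-2 protease, lay between 2.66 and 5.08 TPM, and 28% of its 30-base stretches were shared with Yy2. Of the sterol transport genes, Stard4, a cytosolic sterol carrier, measured 23.9, 26.0 and 4.12 TPM in the Alb-Cre+ mice and 10.2, 19.7 and 4.89 TPM in the controls. The replicate 3 mice of both genotypes were again the lowest. Tmem97, a membrane protein linked to cholesterol trafficking, lay between 44.0 and 66.9 TPM, and shared 25.9% of its stretches with Gm5809.

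The genotype difference did not have the same sign in the 3 pairs. The median difference over the members was 0.849 in the pair of replicate 1, 0.139 in that of replicate 2 and -0.333 in that of replicate 3 (log2). After rescaling by the median of ratios these medians were 0.868, 0.00028 and -0.192. Of the 29 members, 24 were higher in the Alb-Cre+ mouse of the first pair and 5 in that of the third, against 44.6% and 33.2% of all genes, and 10 were higher in that of the third after rescaling, against 48.6% of all genes. Aacs, Fdft1 and Tmem97 were higher in all 3 pairs, that is 3 of 29 against 11.5% of all genes. Tm7sf2, Ebp, Scap and Insig2 were lower in all 3 pairs, that is 4 of 29 against 12.4% of all genes. After rescaling by the median of ratios, 5 of 29 were higher in all 3 pairs (Aacs, Fdps, Fdft1, Cyp51 and Srebf2), against 13.6% of all genes. Those lower in all 3 were 3 of 29 (Tm7sf2, Ebp and Scap), against 13.3% of all genes. Some of these rescaled differences were close to 0, such as 0.00025 for Fdft1 in the second pair and -0.0049 for Ebp in the first (log2).

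The genotype counts rested largely on a single liver. Without Alb-Cre+ 3, 13 of 29 members had an unadjusted p under 0.05 in limma, against 1.89% of all genes, and 16 did not overlap between genotypes, against 13.1% of all genes. Of these, 14 were higher in both remaining Alb-Cre+ mice than in all controls, against 9.73% of all genes, namely Hmgcs1, Mvk, Pmvk, Mvd, Idi1, Fdps, Fdft1, Sqle, Cyp51, Msmo1, Nsdhl, Dhcr7, Srebf2 and Stard4. Tm7sf2 and Insig2 were lower. These counts are on TPM as deposited. After rescaling by the median of ratios the values of Pmvk overlapped (16.7 in Alb-Cre+ 2 and 17.3 in Alb-Cre- 2), as did those of Tm7sf2 given above. Fdft1 (34.02 in Alb-Cre+ 2 and 34.01 in Alb-Cre- 2), Cyp51 (15.9 and 15.7) and Nsdhl (7.86 and 7.72) were then barely apart. Insig2 was also close, at 320.8 in Alb-Cre+ 1 and 322.8 in Alb-Cre- 1. Leaving out any other mouse gave 0 to 2 members with an unadjusted p under 0.05 and 1 to 4 that did not overlap. The median log2 fold change of the members was 0.68 without Alb-Cre+ 3, while it was -0.066 without Alb-Cre+ 1 and -0.0020 without Alb-Cre- 3. No member passed an adjusted p of 0.01 in any of these fits.

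The replicate number went with the level of many members. Both replicate 3 mice were below all other livers for 17 of 29 members, against 26% of all genes, and for 15 of 29 against 13.3% after rescaling by the median of ratios. In a limma test of the replicate number beside genotype, added after the data had been seen, 17 of 29 members had an unadjusted p under 0.05 against 26% of all genes, and 0 of 29 had an adjusted p under 0.05 against 3.48% of all genes. The smallest adjusted p was 0.0527 for Stard4. What the replicate numbers share, such as a litter, is not given in the sources used here.

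The females were replicate 2 in both genotypes, so that sex and replicate 2 cannot be told apart. Of the members, 25 of 29 were higher in the females, against 76.7% of all genes, with a median log2 difference of 0.51 beside 0.26 for all genes. After rescaling by the median of ratios the median of the members was 0.29, and on TPM as deposited it was 0.96 without Alb-Cre+ 1 and 0.28 without Alb-Cre+ 3. None passed an adjusted p of 0.01 for sex (0 of 29 against 0.514% of all genes, limma with genotype as a covariate), and 5 of 29 had an unadjusted p under 0.05 against 28.7% of all genes. Lbr came nearest, with a log2 difference of 1.01 (SE 0.20, adjusted p = 0.0387 in limma). The difference of the genotype effect between the sexes had an unadjusted p under 0.05 for 2 of 29 members, Insig2 and Mbtps1, against 6.08% of all genes, and no member passed an adjusted p of 0.01 (smallest 0.775).

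Markers of other liver cells also differed between mice. The 9 Kupffer cell and macrophage markers, all of them tested, summed to 258, 653 and 173 TPM in the Alb-Cre+ mice and 257, 602 and 224 TPM in the controls, highest in the females and lowest in the replicate 3 mice. The 8 sinusoidal endothelial markers summed to 100 to 235 TPM and 132 to 214 TPM, and the 8 stellate cell markers to 120 to 240 TPM and 93.2 to 253 TPM. The 6 lymphocyte markers summed to 1.73 to 5.69 TPM. Of the 6 intestinal or pancreatic markers, 5 were below a mean of 0.1 TPM, and Cela1 lay between 16.2 and 21.9 TPM. In whole liver, fewer cells of a type and less RNA per cell cannot be told apart, and the part of these cells in the values above was not tested. The hepatocyte markers, of which 7 of 8 were matched, summed to 63200 to 82940 TPM in the Alb-Cre+ mice and 80500 to 93040 TPM in the controls. Of the 7, 1 was higher in mean log2 value (Cps1, log2 fold change 0.19), against 49.6% of all genes, and 6 were lower. Values of 2 of the 7 did not overlap between genotypes, against 4.9% of all genes. Apoa1, the main HDL protein, was 1 of these, at 8802 to 10222 TPM against 15764 to 20844 TPM (unadjusted p = 0.0065 and adjusted p = 0.9999 in limma). Alb overlapped, at 38059 to 55647 TPM against 47313 to 54138 TPM. Mitochondrial transcripts made up 10.8 to 12.2% of TPM, and 10059 to 11125 genes reached 1 TPM, fewest in Alb-Cre+ 3 and most in Alb-Cre+ 2.

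The wider pathway was counted in the same way, beside 1.76% of all genes with an unadjusted p under 0.05 in limma (4.69% with the replicate block) and 49.6% higher in Alb-Cre+ mice. Of 26 tested genes among the other enzymes, electron donors and isoprenoid branch, 0 had an unadjusted p under 0.05 in limma, with 12 higher and 14 lower. Acat1 lay between 181 and 249 TPM, Acat3 between 98.5 and 173 TPM, and Idi2 was at most 0.00966 TPM. Of 19 genes for sterol sensing, SREBP processing and turnover, 0 had an unadjusted p under 0.05, with 1 higher and 18 lower, a median log2 fold change of -0.11. Their median deviation from the 6-mouse mean was -0.045, 0.18 and -0.31 in Alb-Cre+ 1, 2 and 3 (log2, TPM as deposited). In Alb-Cre- 1, 2 and 3 it was 0.020, 0.12 and -0.013. Alb-Cre+ 2 thus had the highest of these medians and Alb-Cre+ 3 the lowest. For all genes tested the medians were 0.25 in Alb-Cre+ 2 and -0.22 in Alb-Cre+ 3. Srebf1, which encodes the related factor SREBP1, measured 14.8, 9.10 and 5.84 TPM in the Alb-Cre+ mice and 8.85, 14.3 and 6.62 TPM in the controls, and was highest and lowest in the same livers as most synthesis enzymes. Of 27 genes for uptake, export and other sterol responses, 2 had an unadjusted p under 0.05 in limma, both lower: Scarb1, the HDL receptor, at 76.3 to 85.0 TPM against 94.5 to 120 TPM, and Lipa, lysosomal acid lipase, at 43.7 to 75.7 TPM against 81.2 to 118 TPM. Their log2 fold changes were -0.42 and -0.77, and neither passed the adjusted threshold (adjusted p = 0.9999). With the replicate block 3 of the 27 had an unadjusted p under 0.05, the third being Cyp7a1, named after its value was seen.

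Fasting and clock genes are given because both states are known to set this program. Of 16 fasting and insulin response genes, Fasn, fatty acid synthase, was higher at 11.1 to 16.1 TPM against 3.68 to 8.76 TPM (log2 fold change 1.34, unadjusted p = 0.00495 in limma), and Cpt1a, which admits fatty acids to mitochondria, was lower at 130 to 179 TPM against 187 to 273 TPM (log2 fold change -0.63, unadjusted p = 0.0139 in limma). Within each genotype Fasn ranked the mice as Idi1 did, while all Alb-Cre+ livers were above all controls. Fasn and Cpt1a had an adjusted p of 0.9999, and with the replicate block 6 of the 16 genes had an unadjusted p under 0.05. In mean log2 value 8 of the 16 were higher and 8 lower in Alb-Cre+ mice, against 49.6% of all genes higher. Fasn does not stand for fatty acid synthesis as a whole, since the paper reported several genes of that process as lower. Of 15 clock genes, 0 had an unadjusted p under 0.05, and 2 (Nfil3 and Arntl, named after their values were seen) had one with the replicate block. Over all genes these shares were 1.76% without the block and 4.69% with it.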

How the data were processed

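RNA sequencing of liver was analysed for 3 Surf4 fl/fl Alb-Cre+ and 3 Surf4 fl/fl Alb-Cre- mice, grouped by their labels. The authors deposited TPM per mouse and transcript, 116748 transcripts adding up to 1000000 in each mouse. Per the labels, STAR, RSEM, Salmon and GRCm38 were used, and the versions of these tools are not given in the sources used here. The paper names STAR and RSEM but not Salmon. Transcript types and exon coordinates given here are those of GENCODE M21. The Fdft1 transcript ENSMUST00000238526.2 is absent from M21, so the deposited TPM rest on another annotation. A second deposited table holds the authors' own comparison (log2 fold changes, their errors, p-values and scores) and was not used. TPM keep no read numbers, so depth is unknown and counting intervals cannot be given.

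TPM were summed by gene symbol. The 163 transcripts without a symbol (0.0515 to 0.0887% of TPM) were left out. Where the mean over the mice reached 0.1 TPM, log2(TPM + 0.1) was fitted by limma 3.58.1 (R 4.3.3, variance trend). The p-values were adjusted by Benjamini-Hochberg with a threshold of 0.01. The fit was tested on simulated data, with results not given here. How well it calls genes as widely spread as most members is therefore not shown. Fold changes on this scale understate those of low genes. P-values measure the spread between these mice. Same-numbered mice deviated together (correlations over 10635 genes of 0.49, 0.69 and 0.452), so a replicate block was fitted beside the genotype fit. Over the members alone these correlations were 0.273, 0.791 and 0.851. There Alb-Cre+ 1 deviated more closely with Alb-Cre- 2 (0.514) than with its same-numbered mouse. Stretches shared between genes were counted with GENCODE M21 transcripts, and promoters came from RefSeq.

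The members and lists were chosen with earlier results of these data known. All members were to be named, with genes of the other lists where their unadjusted p was under 0.05, the paralogs of members and Srebf1. Some genes that meet this rule are not reported here. Alternatives were another pseudocount, filter, scaling or covariate, no variance trend, and leaving out each mouse. The male mice alone and the block with rescaling were added after seeing the data.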

Additional observations from a re-analysis of the deposited data

How the results depend on the processing

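No member passed an adjusted p of 0.01 for genotype or sex in any alternative fit, and no gene did for genotype in limma except 1 without Alb-Cre+ 1 (0 to 1 over the fits that left out a mouse), Gm10240, a gene outside the pathway that was named after its value was seen. The number of genes with an unadjusted p under 0.05 for genotype was 250, and became 666 with the replicate block, 531 with sex as a covariate, 442 with no filter on low values, 774 with the replicate block and median of ratios together, 548 in male mice only, and 185 to 505 without 1 mouse. The number of members among them was 1, and became 2 with the replicate block, 2 with sex as a covariate, 0 with no variance trend, 0 with median of ratios, 2 with the replicate block and median of ratios together, 2 in male mice only, and 0 to 13 without 1 mouse. Members whose values did not overlap between genotypes numbered 1, and became 0 with median of ratios and 1 to 16 without 1 mouse, the highest counts being those without Alb-Cre+ 3. The causes were not tested. The replicate block brought no member past the adjusted threshold, and it raised the number of genes with an unadjusted p under 0.05 from 1 to 2 among the hepatocyte markers and from 0 to 1 among the Kupffer cell markers.

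The sign of the log2 fold change was kept in all 13 alternatives for 11 members and turned in at least 1 for 18, none of them called. Rescaling by median of ratios shifted the median of all genes by 0.00602 (log2) and left 14 of 29 members with an unadjusted p under 0.05 for the replicate number in place of 17. TPM hold no read numbers, so how far depth limits the low values is unknown. Such values include those of Sqle, Mvd and the coding Fdft1 transcript ENSMUST00000054963.10 in Alb-Cre+ 3.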
